A study of Mus musculus with 18 samples.

Results

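Lipases that act on the vessel wall, together with the proteins that trim them, fold them and pass lipids between plasma lipoproteins, were followed in liver RNA of mice lacking lysosomal acid lipase. The group was chosen by gene symbol and held 8 genes (Lpl, Lipc, Lipg, Lcat, Pltp, Angptl4, Angptl8 and Lmf1), all of which were found among the 35441 genes listed and among the 14533 genes with more than 100 reads over the 18 mice. Liver polyA RNA had been sequenced from 6 groups of 3 male mice. Wild-type (WT) mice were littermates of the Lipa-/- mice, in which exon 4 of Lipa, the gene for lysosomal acid lipase, had been removed in every tissue by Cre under a CMV promoter on a C57/BL6N background. Untreated Lipa-/- mice received no vector. Treated Lipa-/- mice were injected intravenously at 10 to 12 weeks of age with rAAV8.hAAT.LIPA, an adeno-associated virus that carries human LIPA cDNA behind a promoter active in hepatocytes, so that only hepatocytes were meant to transcribe the transgene. Livers were taken at 12 weeks after injection (labelled 3 months) or at 34 weeks (labelled 8 months), with untreated Lipa-/- and WT groups at each time. Most untreated Lipa-/- mice of the long experiment had been killed at ethical endpoints before its end, so that the livers labelled 8 months in that group may have been taken earlier. The labels give no vector dose for the sequenced mice, and the study followed its middle dose at the longer times. Mice had free access to chow, and the feeding state at death is not given in the sources used here.

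Lipoprotein lipase, hepatic lipase and endothelial lipase form one family of secreted enzymes that hydrolyse lipids of circulating lipoproteins while held on the vascular surface. The first works mainly on triglycerides of chylomicrons and VLDL in muscle and fat and is nearly silent in adult hepatocytes but made by macrophages, the next on remnants and HDL in the liver, and the last mainly on HDL phospholipids. Lecithin-cholesterol acyltransferase and phospholipid transfer protein remodel HDL in plasma, ANGPTL4 and ANGPTL8 restrain lipoprotein lipase in fasting and feeding, and lipase maturation factor 1 is needed in the endoplasmic reticulum for the dimeric lipases to fold.

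Total counts assigned to genes ranged from 17527824 to 25833059 per library. Levels are given as CPM, counts divided by library size, with each size scaled by TMM, edgeR's correction for differences in composition. The TMM factors ranged from 0.587 to 1.69. At this depth 3 reads corresponded to between 0.0946 and 0.291 CPM. The labels held: murine Lipa lay between 16.7 and 37.0 CPM in all untreated and treated Lipa-/- libraries against 202 to 323 CPM in WT, and human LIPA between 523 and 2745 CPM in treated livers against at most 0.906 CPM elsewhere. Hepatocyte markers were abundant in every library, with a summed level of 44220 CPM or more. A gene was called changed when edgeR's quasi-likelihood test gave an adjusted p under 0.05 and a change over 2-fold. Scaling by total counts in place of TMM moved the all-gene median of log2 fold changes from 0.02 to 0.49 (untreated Lipa-/- against WT, 12 weeks), from -0.03 to 0.60 (34 weeks), from 0.06 to -0.33 (treated against WT, 12 weeks), from -0.19 to -1.05 (treated against untreated, 12 weeks) and from 0.03 to -0.51 (34 weeks). Calls of the 8 genes that this choice ends are named beside each result, as are those it makes between conditions at one time. Calls that it makes between the times are not named. All mice of the 34-week groups carried another study code than those at 12 weeks, so that time and code cannot be told apart. Among the 12-week mice, untreated mouse 5 carried a different code from all others.

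In untreated Lipa-/- livers members of the group moved in opposite directions. At 12 weeks Lpl rose while Lipc and Lipg fell, so 1 of 8 genes was called higher and 2 lower, where 20.2% of all genes tested were called higher and 9.06% lower. At 34 weeks Lpl was again the 1 gene called higher (20.5% of all genes), and Lipc, Lipg and Lcat were lower, 3 of 8 (15.7% of all genes). The median log2 fold change of the 8 genes was -1.08 at 12 weeks and -0.97 at 34 weeks, against 0.02 and -0.03 over all genes tested. With 8 genes these counts describe the group and are no test of it. In bulk liver, fewer cells of a type and less RNA per cell cannot be told apart.

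**Figure D1:**
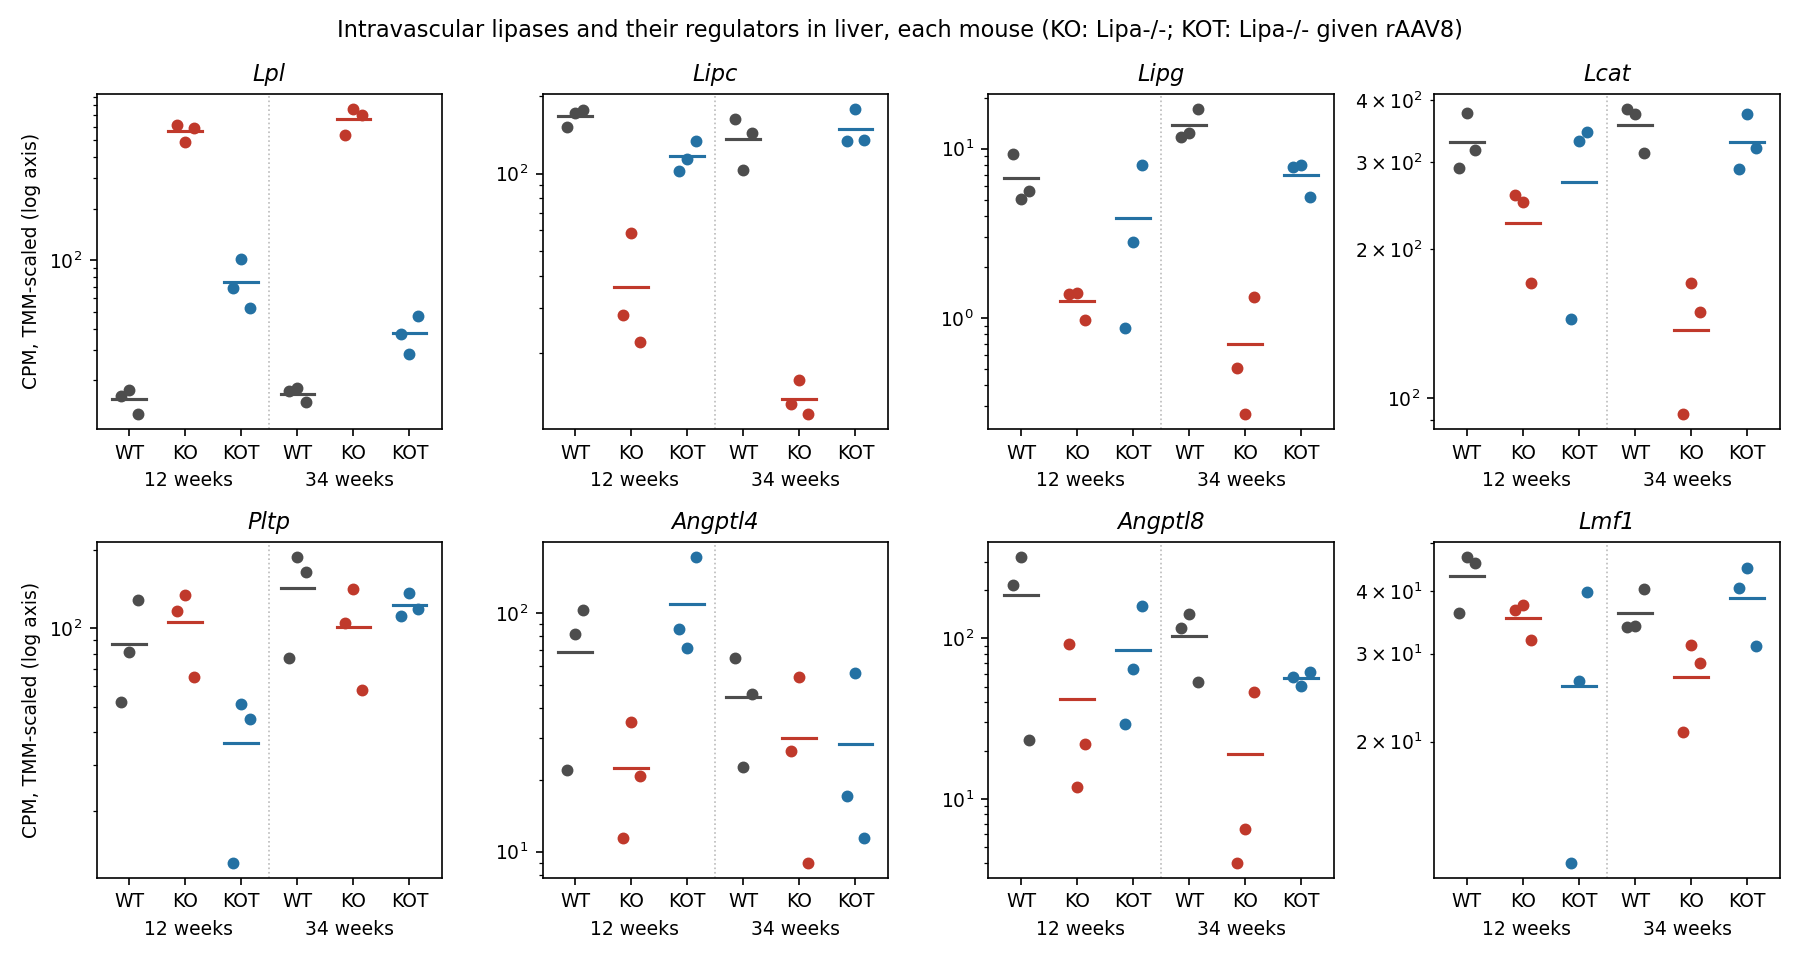
Level of each of the 8 genes in each mouse as TMM-scaled CPM on a log axis, with points for single mice and a line at the group mean (KO, untreated Lipa-/-; KOT, Lipa-/- given rAAV8; n = 3 per group). Lpl separates all untreated Lipa-/- livers (492 to 765 CPM) from all others, Lipc and Lipg lie low in untreated Lipa-/- livers, and Angptl4 and Angptl8 scatter widely inside most groups, though Angptl8 does not in treated livers at 34 weeks (50.2 to 61.7 CPM).

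Lpl (chr8:69284603-69360100, plus strand, GRCm39), which encodes lipoprotein lipase, was the one member of the group that rose without Lipa. It shares exonic positions with Gm64236, a long non-coding RNA gene on the opposite strand that is not among the genes listed, and the strand setting that the counting program chose is not given in the sources used here, so reads of the pair may not have been told apart. At 12 weeks Lpl stood at 16.3, 17.5 and 12.7 CPM in WT mice, at 614, 492 and 593 CPM in untreated Lipa-/- mice and at 69.3, 102 and 52.6 CPM in treated mice. At 34 weeks the values were 17.3, 17.97 and 14.9 CPM in WT, 541, 765 and 701 CPM in untreated and 37.5, 28.3 and 47.7 CPM in treated mice. The 3 conditions did not overlap at either time, with treated livers always between the others. The untreated mice exceeded WT by 5.19 ± 0.30 (SE, log2; edgeR adjusted p = 1.43e-08) and 5.32 ± 0.30 (adjusted p = 1.23e-08). Treated livers at 12 weeks were higher than WT by 2.27 ± 0.27 (log2, adjusted p = 0.000261), a 4.81-fold difference. At 34 weeks the difference was 1.18 ± 0.26 (log2), the groups did not overlap, and edgeR did not call it (adjusted p = 0.103, unadjusted p = 0.000288), whereas DESeq2 did (log2 fold change 1.17, adjusted p = 0.00133). The 2 comparisons share no mice, and the change in the treated-to-WT difference from 12 to 34 weeks was -1.09 ± 0.36 (log2, edgeR adjusted p = 0.0452), a call made in 6 of 20 alternatives and lost with total counts (-0.63, adjusted p = 0.2596). Within treated mice Lpl was lower at 34 than at 12 weeks, with a difference of -0.98 ± 0.25 (log2, adjusted p = 0.00625), under the 2-fold limit, while by TPM, which is not TMM-scaled, the difference was 0.09.

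In TPM, the unit that allows levels of different genes to be compared, the order of the group turned over. Lpl was the 7th of 8 genes in WT livers, with 3.47 ± 0.22 TPM (SD, n = 3) at 12 weeks and 4.47 ± 1.11 TPM at 34 weeks, and in the latter overlapped Lipg. It was the second in untreated Lipa-/- livers at 12 weeks with 172 ± 24 TPM, below Lcat at 239.6 ± 40.3 TPM. At 34 weeks it was the first with 272 ± 8.08 TPM, and every mouse had more Lpl than Lcat (193 ± 31.1 TPM). In treated livers Lpl held the 6th place at 12 weeks (10.7 ± 5.42 TPM, overlapping Pltp and Lmf1) and the 7th at 34 weeks (10.9 ± 3.20 TPM, overlapping Angptl4). Among WT livers the order by mean TPM at 12 weeks was Lcat, Angptl8, Lipc, Pltp, Angptl4, Lmf1, Lpl and Lipg, in which Lcat overlapped Angptl8, Angptl8 overlapped Lipc, and Pltp, Angptl4 and Lmf1 overlapped in turn. At 34 weeks the order was the same but for Lmf1, which stood before Angptl4 and overlapped it.

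**Figure D2:**
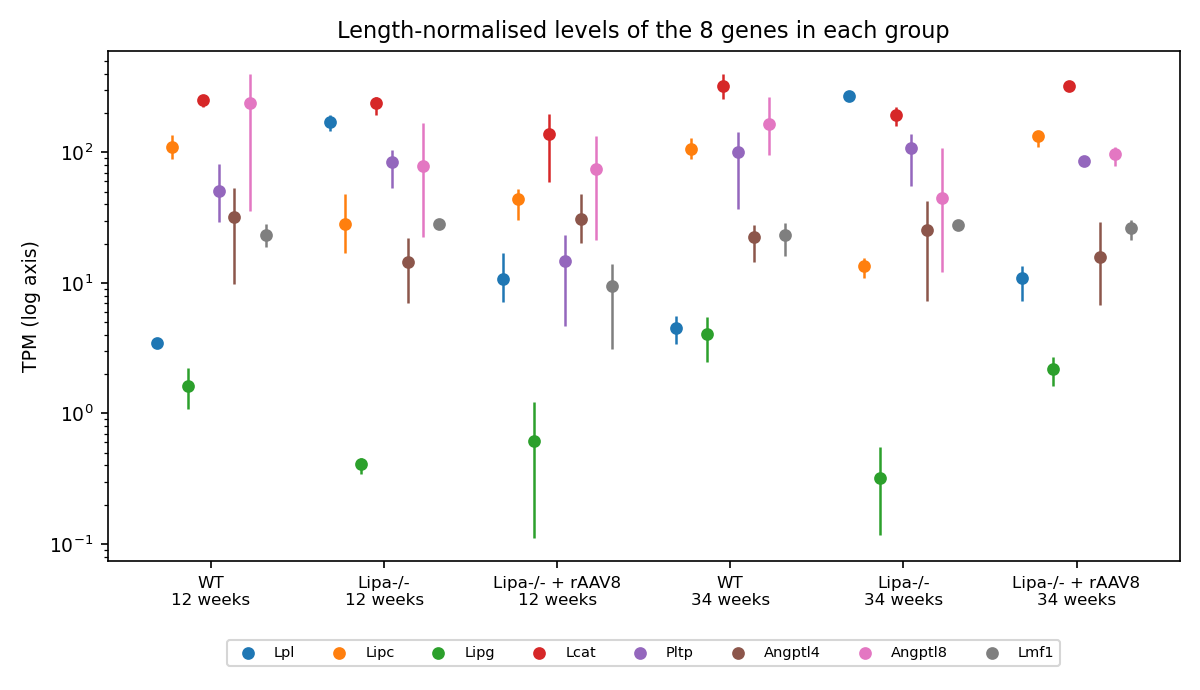
Mean TPM of each gene (points) with the range over 3 mice (bars) on a log axis, by group. Lpl is near the bottom in WT, with 3.47 and 4.47 TPM, and at the top of the group in untreated Lipa-/- livers at 34 weeks, with 272 TPM, where Lipg has 0.319 TPM.

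Most macrophage markers moved with Lpl, but some did not. Of 18 markers 15 were called higher (20.2% of all genes) and 1 lower (9.06%) in untreated Lipa-/- against WT at 12 weeks. At 34 weeks 13 were higher (20.5%) and 2 lower (15.7%). Lower were Timd4 at both times (log2 -3.62 ± 0.86, edgeR adjusted p = 0.00299, and -3.84 ± 0.82, adjusted p = 0.00105) and Clec4f at 34 weeks (-2.73 ± 1.07, adjusted p = 0.0445). The summed level of the 18 markers was 263 to 604 CPM in WT and 6983 to 11630 CPM in untreated livers at 12 weeks. At 34 weeks it was 442 to 824 CPM and 6098 to 9833 CPM. Lyz2 and Gpnmb, with means of 3975 and 2011 CPM in untreated livers at 12 weeks, were the largest parts of it. Treated livers had 1528 to 3437 CPM at 12 weeks and 656 to 1480 CPM at 34 weeks. Of the defining markers, mean Cd68 was 4.17 CPM in WT, 319 CPM in untreated and 15.6 CPM in treated livers at 12 weeks, and mean Adgre1 was 7.67, 40.7 and 40.03 CPM. Per 1000 CPM of these markers, Lpl was 28.9 to 48.4 CPM in WT and 43.8 to 87.9 CPM in untreated livers at 12 weeks, ranges that overlap. The value of 87.9 CPM came from untreated mouse 5, which carried another study code than its group. At 34 weeks the ratio was 21.0 to 33.7 CPM in WT and 62.4 to 115 CPM in untreated livers, ranges that do not. In treated livers it was 20.2 to 50.9 CPM at 12 weeks and 32.2 to 46.2 CPM at 34 weeks. The adipocyte markers Adipoq and Plin1 were near 0, with group means of at most 0.241 and 0.528 CPM. In WT livers at 34 weeks both averaged 0.0259 CPM. Cidec, also on the adipocyte list, averaged 22.9 CPM in WT livers at 34 weeks against 0.969 CPM in untreated and 2.09 CPM in treated ones. The summed adipocyte list reached 39.3 CPM in WT at 34 weeks, where it was mostly Cidec, and at most 7.38 CPM in the other groups. The summed striated muscle list reached at most 5.74 CPM. What part the macrophage markers have in the Lpl level was not tested.

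**Figure D3:**
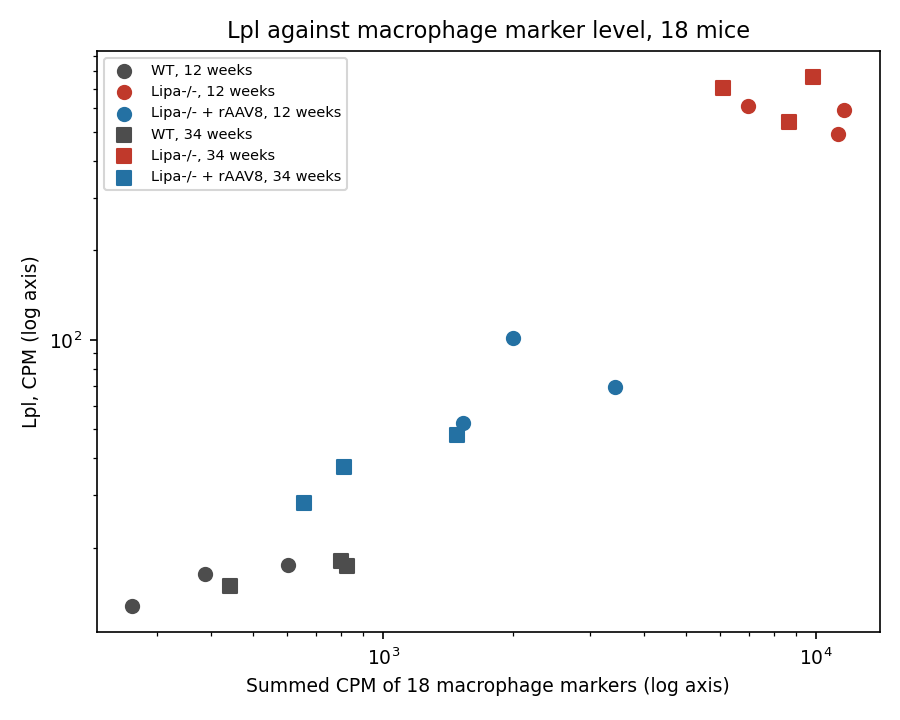
Lpl in CPM against the summed CPM of 18 macrophage markers in each of the 18 mice, both axes logarithmic, with colour for condition and shape for time. The 6 untreated Lipa-/- livers (492 to 765 CPM of Lpl) stand apart from the WT livers (12.7 to 17.97 CPM), with the treated livers (28.3 to 102 CPM) between them.

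Lipc (chr9:70705410-70859508, minus strand, GRCm39) encodes hepatic lipase and fell in untreated Lipa-/- livers. The 250 bases before the start of its canonical transcript (chr9:70842091-70842340, minus strand, GRCm39; sequence from RefSeq, found once in this genome and in no annotated exon) are shown because Lipc was called in all 4 comparisons with untreated livers at the same time. Lpl and Lipg were called in all 4 too, but no upstream sequence was found for them. A second Lipc window, before another start (chr9:70859504-70859753), is not shown. Capitals mark matches, on either strand, to the letters AGGTCA, a half-site bound by nuclear receptors such as HNF4A and PPARA, CCAAT, and the GC box GGGCGG.
Lipc: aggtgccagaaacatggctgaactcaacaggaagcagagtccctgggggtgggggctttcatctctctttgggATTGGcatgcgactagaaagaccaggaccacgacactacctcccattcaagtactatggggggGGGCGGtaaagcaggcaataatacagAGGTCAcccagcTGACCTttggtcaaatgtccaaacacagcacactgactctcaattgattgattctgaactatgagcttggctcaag
The half-site occurs once on each strand, 88 and 76 bases before the start. Windows of this length before the start of other genes held AGGTCA in 14% of 32851 entries, CCAAT in 33.8% and GGGCGG in 32.7%, and no match was found to TATAAA (12.4%), GTTAAT (6.43%) or CACGTG (6.02%). The matches are letters in a window and carry no statement on binding.

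At 12 weeks Lipc stood at 152, 173 and 176.5 CPM in WT, at 28.0, 58.4 and 22.1 CPM in untreated and at 102, 114 and 134 CPM in treated mice. The 34-week values were 163, 103.5 and 144 CPM in WT, 12.6, 15.7 and 11.6 CPM in untreated and 134, 179 and 135 CPM in treated mice. Untreated mice were below all others at both times, and treated mice overlapped WT at 34 weeks but not at 12 weeks. Untreated livers differed from WT by -2.21 ± 0.30 (log2, edgeR adjusted p = 2.58e-05) at 12 weeks and by -3.36 ± 0.32 (adjusted p = 5.07e-07) at 34 weeks, a 10.3-fold difference. Both calls held in 14 of 14 alternatives. Treated livers exceeded untreated ones by 1.69 ± 0.30 (adjusted p = 0.000245) and 3.49 ± 0.32 (adjusted p = 7.79e-07). The first of these fell to 0.83 with total counts and to 0.75 by TPM, both under the 2-fold limit. Their difference from WT was -0.52 ± 0.29 (adjusted p = 0.166) at 12 weeks and 0.13 ± 0.29 (adjusted p = 0.992) at 34 weeks. Lipc was the 1 member called between the times in untreated mice, lower at 34 weeks with a log2 difference of -1.44 ± 0.30 (adjusted p = 0.0393), where 0.495% of all genes were called in either direction. That call was kept in 5 of 14 alternatives, was lost with total counts (-1.12, adjusted p = 0.0785) and was lost when any of 5 mice was left out, the value without mouse 8 at 12 weeks, the highest of its group, being -0.92 (adjusted p = 0.234).

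Lipg, the gene of endothelial lipase on chromosome 18 (75072393 to 75094339, minus strand, GRCm39), was the lowest of the 8 genes in TPM in every group. At 12 weeks it stood at 9.32, 5.07 and 5.60 CPM in WT, at 1.38, 1.398 and 0.969 CPM in untreated and at 0.874, 2.83 and 8.05 CPM in treated mice. At 34 weeks it was 11.7, 12.3 and 17.2 CPM in WT, 0.504, 0.270 and 1.32 CPM in untreated and 7.84, 8.03 and 5.21 CPM in treated mice. The lowest of these values rested on 7 reads, in an untreated mouse at 34 weeks. WT and untreated mice did not overlap at either time, whereas the treated mice at 12 weeks spanned both. Lipg fell without Lipa, with log2 fold changes of -2.41 ± 0.58 (edgeR adjusted p = 0.00358) and -4.29 ± 0.63 (adjusted p = 3.56e-05), in 14 of 14 alternatives each. Treated livers exceeded untreated ones at 34 weeks by 3.32 ± 0.61 (adjusted p = 0.000376), again in 14 of 14. At 12 weeks the excess was 1.65 ± 0.58 (adjusted p = 0.0253), a call lost with total counts (0.77, adjusted p = 0.254), by TPM (0.12, adjusted p = 0.854) and without treated mouse 12 (0.59, adjusted p = 0.377). It was also lost without untreated mouse 5 (1.73, adjusted p = 0.0521), 8 (1.73, adjusted p = 0.0507) or 9 (1.499, adjusted p = 0.0729). Against WT, treated livers differed by -0.76 ± 0.55 at 12 weeks (adjusted p = 0.288) and -0.97 ± 0.54 at 34 weeks (adjusted p = 0.926), and at the latter the groups did not overlap.

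The 2 genes that act on HDL in plasma behaved differently from each other. Lcat (chr8:106665839-106670046, minus strand, GRCm39), which esterifies HDL cholesterol, had the highest mean TPM of the 8 genes in WT and treated livers and overlapped Angptl8 in all of these groups but treated livers at 34 weeks. At 12 weeks it was 291, 378 and 317 CPM in WT, 257, 249.3 and 171 CPM in untreated and 144, 330.5 and 345 CPM in treated mice. By 34 weeks the level was 384, 375 and 312 CPM in WT, 92.7, 171 and 149 CPM in untreated and 289.9, 375 and 320.5 CPM in treated mice. Untreated mice lay below WT at both times, and at 34 weeks also below all treated mice. The difference from WT was -0.54 ± 0.30 at 12 weeks (log2, edgeR adjusted p = 0.167). It was called at 34 weeks (-1.38 ± 0.31, adjusted p = 0.00137), as was the excess of treated over untreated livers (1.26 ± 0.30, adjusted p = 0.00319). Both 34-week calls held in 12 of 14 alternatives and were lost with total counts (-0.77 and 0.73) and by TPM (-0.73 and 0.74), which kept the direction.

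Pltp (chr2:164677702-164701743, minus strand, GRCm39), the phospholipid transfer protein gene, shares exonic positions with Ctsa on the opposite strand, so reads of that pair too may not have been told apart. At 12 weeks it was 52.3, 80.8 and 128 CPM in WT, 116.5, 135 and 64.8 CPM in untreated and 12.6, 51.3 and 44.8 CPM in treated mice. At 34 weeks it was 77.1, 187 and 165 CPM in WT, 104, 141 and 57.8 CPM in untreated and 111, 137 and 119 CPM in treated mice. WT and untreated mice overlapped at both times, with differences of 0.27 ± 0.47 (log2, edgeR adjusted p = 0.680) and -0.50 ± 0.47 (adjusted p = 0.406). Treated mice at 12 weeks were the exception and lay below every mouse of the other groups. Against WT the log2 difference was -1.26 ± 0.48 (adjusted p = 0.0492), a call kept in 9 of 14 alternatives. It was lost without treated mouse 10 (-0.92, adjusted p = 0.142), WT mouse 2 (-1.31, adjusted p = 0.0667) or WT mouse 3 (-0.87, adjusted p = 0.220). Against untreated mice it was -1.53 ± 0.48 (adjusted p = 0.0137), in 14 of 14 alternatives. In treated livers Pltp was higher at 34 than at 12 weeks by 1.75 ± 0.49 (adjusted p = 0.00872), in 15 of 15 alternatives. The change of the treated-to-WT difference between the times was 1.03 ± 0.67 (adjusted p = 0.265).

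Both inhibitor genes had wide spreads within most groups. Angptl4 (chr17:33992724-34000804, minus strand, GRCm39), a fasting-induced inhibitor of lipoprotein lipase, stood at 12 weeks at 22.0, 82.2 and 103 CPM in WT, at 11.4, 35.1 and 20.8 CPM in untreated and at 86.1, 71.3 and 172 CPM in treated mice. The later groups had 64.8, 22.7 and 45.7 CPM in WT, 26.5, 54.1 and 9.00 CPM in untreated and 17.1, 56.4 and 11.4 CPM in treated mice. Of the conditions at one time, treated and untreated mice at 12 weeks were the one pair that did not overlap. Treated livers were higher there by 2.29 ± 0.73 (log2, edgeR adjusted p = 0.0144), kept in 10 of 14 alternatives. It was lost with total counts (1.401, adjusted p = 0.0792), by TPM (1.17, adjusted p = 0.143), without treated mouse 12 (1.78, adjusted p = 0.0637) and without untreated mouse 5 (1.97, adjusted p = 0.0619), the 1 mouse of that group with another study code. Untreated against WT gave -1.62 ± 0.71 at 12 weeks (adjusted p = 0.0818), called without WT mouse 1 (-2.04, adjusted p = 0.0392) and by DESeq2 (-1.59, adjusted p = 0.0423). At 34 weeks it gave -0.57 ± 0.70 (adjusted p = 0.530). In treated mice Angptl4 was lower at 34 than at 12 weeks, with a log2 difference of -1.96 ± 0.72 (adjusted p = 0.0355), kept in 8 of 15 alternatives. That call was lost with total counts (-1.34, adjusted p = 0.106), without treated mouse 10 (-2.07, adjusted p = 0.0577) or 12 (-1.44, adjusted p = 0.135) at 12 weeks and without mouse 9 (-1.70, adjusted p = 0.128) or 12 (-1.54, adjusted p = 0.116) at 34 weeks.

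Angptl8 (chr9:21746786-21748643, plus strand, GRCm39) lies within Dock6, which is read from the opposite strand and shares no exonic position with it. It is induced by feeding. At 12 weeks it was 215.5, 321 and 23.2 CPM in WT, 92.2, 11.8 and 22.1 CPM in untreated and 29.4, 64.8 and 160.1 CPM in treated mice. Later, at 34 weeks, it was 116.5, 143 and 53.6 CPM in WT, 4.00, 6.53 and 46.4 CPM in untreated and 57.1, 50.2 and 61.7 CPM in treated mice. The coefficient of variation within a group reached 125%, in untreated mice at 34 weeks, and was 10.2% in treated mice at that time. Untreated livers differed from WT by -2.15 ± 0.97 (log2, edgeR adjusted p = 0.0913) at 12 weeks, called without WT mouse 3 (-2.67, adjusted p = 0.0368) or without untreated mouse 5 (-3.46, adjusted p = 0.0261). At 34 weeks the groups did not overlap, the difference was -2.46 ± 0.99, and the adjusted p of 0.05002 missed the threshold narrowly. It passed in 7 of 14 alternatives, among them DESeq2 (-2.40, adjusted p = 0.0314) and the fit without untreated mouse 6 (-4.31, adjusted p = 0.00498). In 4 of the 6 groups the mouse with the highest Angptl8 had the lowest Angptl4. WT mouse 2 at 34 weeks, for example, had 143 CPM of Angptl8 and 22.7 CPM of Angptl4. Treated mouse 12 at 12 weeks, by contrast, had the highest level of its group for both, with 160.1 CPM of Angptl8 and 172 CPM of Angptl4. With 3 mice per group the count of 4 groups is no test. The deviations of the 2 genes from their group means had a Pearson r of -0.48 over the 18 mice (log2 CPM), given as a description, since both genes are read from the same libraries.

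Lmf1 (chr17:25798048-25888183, plus strand, GRCm39), the maturation factor, was called in no comparison. WT mice ranged from 36.2 to 46.8 CPM at 12 weeks and from 34.0 to 40.4 CPM at 34 weeks, untreated mice from 31.9 to 37.5 and from 21.0 to 31.3 CPM, and treated mice from 11.5 to 39.8 and from 31.0 to 44.5 CPM. Untreated livers lay below all WT livers at 34 weeks, with a difference of -0.42 ± 0.31 (log2, edgeR adjusted p = 0.275), and the difference turned to 0.19 with total counts. With total counts it was called lower in treated than in WT livers at 12 weeks (-1.11, adjusted p = 0.0155, against -0.72 with TMM) and lower than in untreated livers (-1.30, adjusted p = 0.00256, against -0.45).

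**Figure D4:**
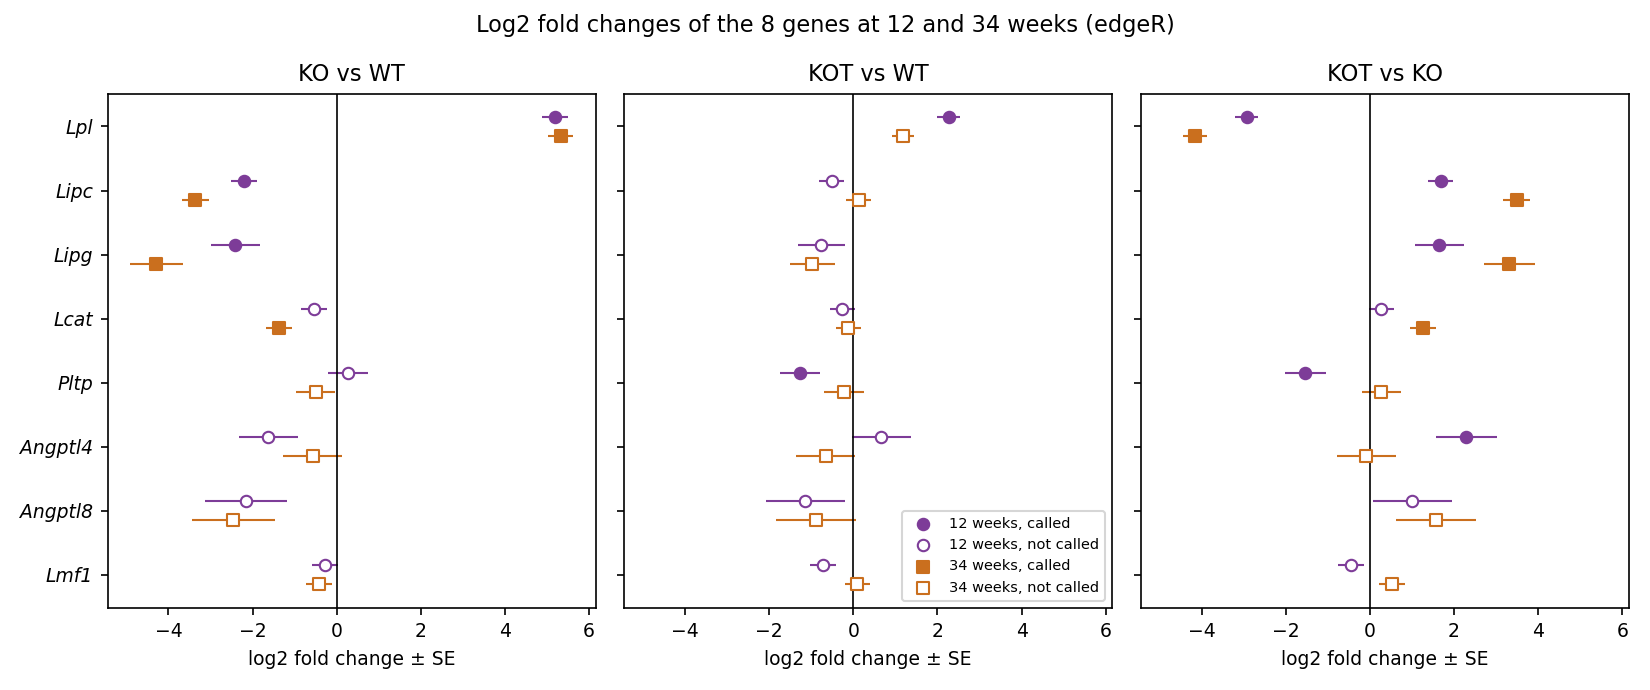
Log2 fold change with its standard error for the 8 genes in 3 comparisons at 12 weeks (circles) and 34 weeks (squares), with filled symbols for called genes. Lpl is at 5.19 and 5.32 on the left, Lipc and Lipg lie on the other side of 0, and on the right the symbols of Pltp and Angptl4 are filled at 12 weeks but not at 34 weeks.

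Treated livers were set against untreated and against WT livers to see which of these differences were left under the vector. These comparisons share the WT or the untreated mice with those above and are not independent of them, so their values are set side by side only. Against untreated mice at 12 weeks, 3 of 8 genes were called higher (Lipc, Lipg and Angptl4; 16.2% of all genes) and 2 lower (Lpl and Pltp; 25.3%). With total counts the split was 0 higher and 3 lower, Lpl, Pltp and Lmf1, where 7612 of the 14533 genes tested were called, 8.92% of them higher. At 34 weeks 3 were higher (Lipc, Lipg and Lcat; 12.8% of all genes) and 1 lower (Lpl, -4.14 ± 0.29, adjusted p = 1.1e-07; 18.6%). Against WT, treated livers at 12 weeks had 1 gene called higher (Lpl; 13.6% of all genes) and 1 lower (Pltp; 12%). By TPM 1 was higher and 5 lower, where 4206 of the 14533 genes tested were called, 13.7% of them higher. At 34 weeks edgeR called 0 of 8, 1 gene (Lpl) had an unadjusted p under 0.05, and DESeq2 called 1. At that time 0.22% of all genes were called.

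Most of the group was uncalled between the times, which also differ in study code. In WT mice 0 of 8 were called by edgeR between 34 and 12 weeks, 0 had an unadjusted p under 0.05 and DESeq2 called 0, with 0.323% of all genes called. In treated mice 1 gene was higher (Pltp) and 1 lower (Angptl4), against 32% of all genes in either direction. With total counts 3 were higher, where 5689 of the 14533 genes tested were called, 87.8% of them higher. The change of the difference between untreated and WT mice from 12 to 34 weeks was called for 0 of 8 (0.0619% of all genes; 0 with DESeq2), and 2 had an unadjusted p under 0.05, Lipc (-1.16 ± 0.41, adjusted p = 0.348) and Lipg (-1.88 ± 0.81, adjusted p = 0.473). For treated against WT it was called for 1, Lpl, with 18.4% of all genes. Treated mouse 10 at 12 weeks had the lowest level of its group for 6 of the 8 genes, and the TMM factor of that library, 0.587, was the lowest of all.

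The counts of called genes in the partner lists below stand against the shares of all genes called, in untreated against WT livers 20.2% higher and 9.06% lower at 12 weeks and 20.5% higher and 15.7% lower at 34 weeks, and in treated against WT livers at 12 weeks 13.6% higher and 12% lower. Counts of 1 gene in a list are near or below these shares. By TPM, calls over all genes in treated against WT livers at 12 weeks leaned lower (4206 called, 13.7% of them higher). The 9 cofactors, anchors and inhibitors of the lipases were for the most part lower in untreated livers at 34 weeks. At 12 weeks 0 were called higher and 1 lower, Creb3l3 (-1.55 ± 0.22, edgeR adjusted p = 3.87e-05), a hepatocyte transcription factor that drives several triglyceride-lowering apolipoproteins. At 34 weeks 6 of 9 were lower and 0 higher, led by Apoa5 (-2.04 ± 0.34, adjusted p = 0.0001098), an activator of lipoprotein lipase, Apoc3 (-1.895 ± 0.385, adjusted p = 0.000677), an inhibitor of it, and Creb3l3 (-1.89 ± 0.22, adjusted p = 4.34e-06). The median log2 fold change of the 9 genes was -0.69 at 12 weeks and -1.71 at 34 weeks, against 0.02 and -0.03 over all genes. With total counts 5 and by TPM 4 of the 9 were lower at 34 weeks, and 0 were higher in either. Treated against WT, 3 of 9 were higher at 12 weeks (Apoc3 by 1.17 ± 0.38, adjusted p = 0.0246; the difference of Apoa5 was 0.47 ± 0.33, adjusted p = 0.2645) and 0 at 34 weeks, whereas by TPM 1 was higher and 3 were lower at 12 weeks.

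The list of folding, secretion and proteolytic processing held 12 genes. At 12 weeks 0 were higher and 3 lower in untreated livers, Pcsk6 (-1.49 ± 0.47, adjusted p = 0.0192), a proprotein convertase, and Syvn1 (-1.19 ± 0.40, adjusted p = 0.0249) and Hspa5 (-1.065 ± 0.328, adjusted p = 0.01595), a ubiquitin ligase and a chaperone of the endoplasmic reticulum. At 34 weeks Pcsk6 alone was called (-2.33 ± 0.49, adjusted p = 0.000824). The median of the 12 genes was -0.63 and -0.50, and with total counts, which called 0 of them at 12 weeks and 1 at 34 weeks, it was -0.17 and 0.14. Treated against WT, 5 of 12 were lower at 12 weeks and 0 at 34 weeks. The 12-week count was 3 with length offsets in edgeR, 4 with DESeq2 and 6 with total counts.

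The 10 HDL genes had calls in both directions. Their counts called higher at both times, and lower at 12 weeks, were near the shares of all genes (20.2%, 20.5% and 9.06%). Pla2g7, a lipoprotein-bound phospholipase made by macrophages, rose by 5.34 ± 0.41 at 12 weeks (adjusted p = 8.32e-08) and by 4.51 ± 0.39 at 34 weeks (adjusted p = 2.31e-07). Abcg1, a cholesterol exporter of macrophages, rose by 3.95 ± 0.24 (adjusted p = 1.7e-08) and 3.40 ± 0.23 (adjusted p = 4.35e-08). Pon1, an HDL-bound esterase from the liver, fell, with -1.401 ± 0.230 (adjusted p = 0.000146) and -2.68 ± 0.24 (adjusted p = 3.44e-07). The apolipoprotein genes Apoa4 (-2.37 ± 0.47, adjusted p = 0.000589) and Apoa2 (-2.27 ± 0.36, adjusted p = 7.18e-05) were lower at 34 weeks. In all, 2 were higher and 1 lower at 12 weeks, and 2 higher and 3 lower at 34 weeks, with medians of -0.25 and -0.43 that turned to 0.20 and 0.25 with total counts. The call of Pon1 at 12 weeks was lost there. Most macrophage markers moved with the 2 genes that rose, and their part in these levels was not tested. Treated against WT, 2 of 10 were higher at 12 weeks, Pla2g7 (1.57 ± 0.38, adjusted p = 0.007797) and Apoa4 (1.67 ± 0.46, adjusted p = 0.0129), and 0 at 34 weeks, where Pla2g7 differed by 1.08 ± 0.36 (adjusted p = 0.532). The 12-week count was 2 higher and 1 lower with total counts, and 0 higher and 2 lower by TPM.

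Of the 8 remnant and LDL uptake genes 1 was higher and 0 lower at each time. At 12 weeks it was Cd36, a fatty acid transporter (1.92 ± 0.40, adjusted p = 0.00116), and at 34 weeks Sort1, a sorting receptor that also binds lipoprotein lipase (1.903 ± 0.230, adjusted p = 5.145e-06). The medians were 0.25 and 0.03, and 0.71 and 0.61 with total counts. Treated against WT, 2 of 8 were lower at 12 weeks, 5 with total counts, and 0 at 34 weeks. All partner genes of these 4 lists passed the filter on low counts.

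**Figure D5:**
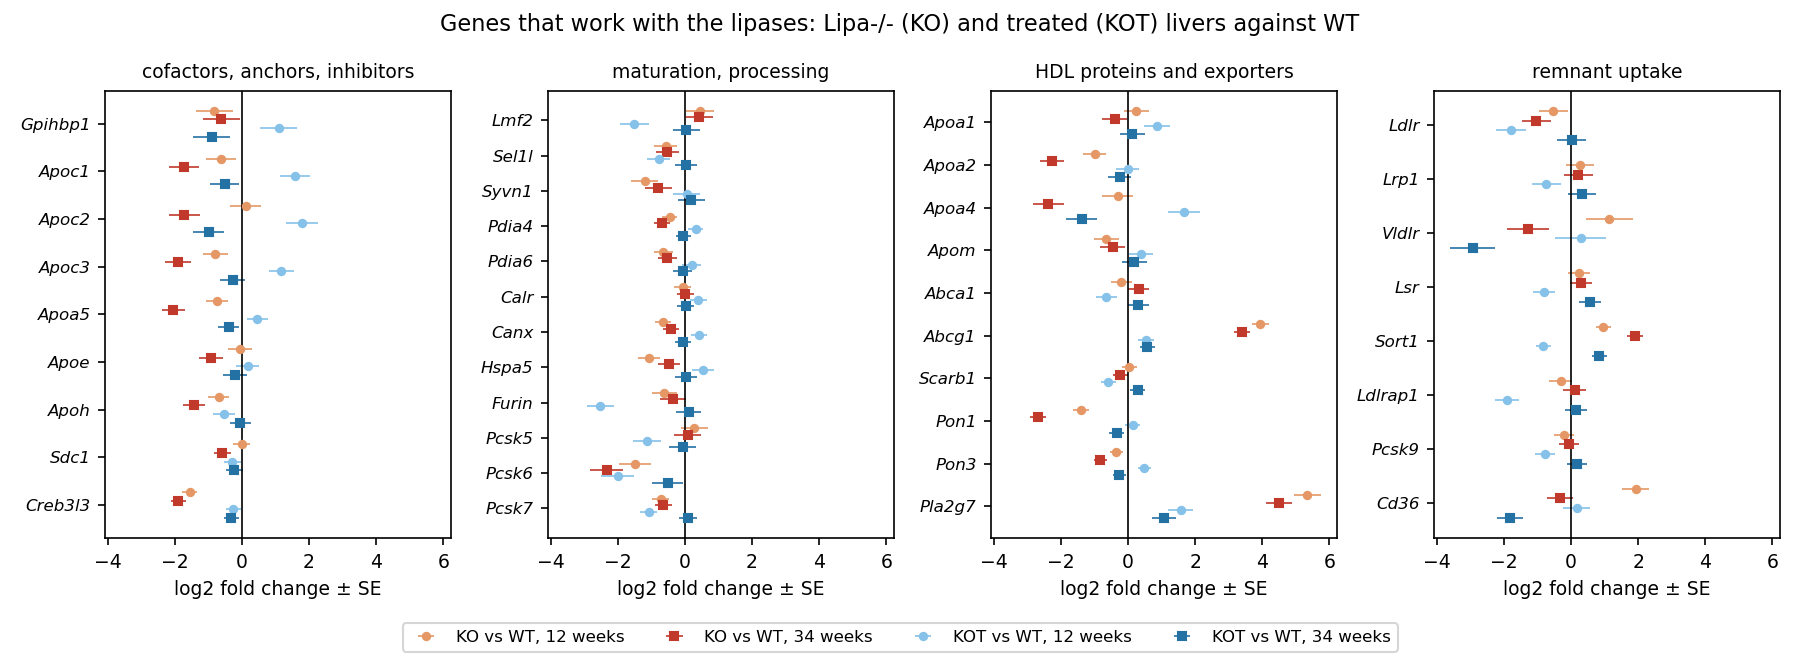
Log2 fold change with its standard error of the partner genes, 1 panel for each of 4 lists, for untreated Lipa-/- (KO, orange and red) and treated (KOT, light and dark blue) livers against WT at 12 weeks (circles) and 34 weeks (squares). In untreated livers Pla2g7 (5.34 and 4.51) and Abcg1 (3.95 and 3.40) stand out on the right, and at 34 weeks Pon1 (-2.68) and Apoa4 (-2.37) lie furthest left. Vldlr in treated livers at 34 weeks (-2.93, not called) lies further left than these.

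Genes with the most similar level across the 18 mice were ranked for the 4 members called in untreated livers, by Pearson r of log2 CPM among 12598 genes. For Lpl they were Emp3 (r = 0.990), Lgals3 (0.989) and Cd63 (0.987). For Lipc they were Ces3a, Acadsb and Cyp2j5 (0.980 each). For Lipg they were Oplah (0.964), Hectd3 (0.961) and Clstn3 (0.960). For Lcat they were Hpn (0.970), Plg (0.961) and Apoh (0.959). These values in part restate the difference between groups, since the mice fall into the same 6 groups and both genes are read from the same libraries. With group means removed they were 0.66, 0.67 and 0.55 for Lpl, 0.77, 0.75 and 0.56 for Lipc, 0.77, 0.79 and 0.77 for Lipg and 0.94, 0.94 and 0.89 for Lcat.

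Markers of the other cells in liver also differed between groups. Of all genes, 20.2% were called higher and 9.06% lower at 12 weeks, and 20.5% and 15.7% at 34 weeks. Counts of 1 gene are near or below these shares. So are the 34-week counts of lymphocyte markers, of endothelial markers called higher and of stellate markers called lower. In untreated against WT livers, hepatocyte markers had 0 of 12 higher and 4 lower at 12 weeks, and 0 higher and 9 lower at 34 weeks, with mean Alb at 44780 CPM in WT and 20820 CPM in untreated livers at 34 weeks and mean Ttr at 6502 and 1660 CPM. Trf and Fgb of the same list went the other way. Trf rose by 0.849 ± 0.315 (log2, edgeR adjusted p = 0.0416) at 12 weeks and 0.944 ± 0.316 (adjusted p = 0.0209) at 34 weeks, under the 2-fold limit. Fgb differed by 0.29 (adjusted p = 0.563) and 0.35 (adjusted p = 0.451). With total counts 1 of the 12 hepatocyte markers was higher and 1 lower at 12 weeks, and 1 higher and 3 lower at 34 weeks. Their sum in untreated livers, 61150 to 79300 CPM at 12 weeks and 44220 to 76900 CPM at 34 weeks, compares with 76940 to 94100 CPM in WT over both times. Endothelial markers had 1 of 10 higher and 5 lower at 12 weeks (sum 142 to 153 CPM against 211 to 249.8 CPM in WT), with mean Stab2 at 20.9 CPM in untreated and 20.8 CPM in WT livers and mean Lyve1 at 12.4 and 5.41 CPM. Stellate markers had 5 of 10 higher and 1 lower at 12 weeks (716 to 1028 CPM against 187 to 338 CPM), cholangiocyte markers 4 of 6 higher (29.2 to 56.3 CPM against 9.32 to 18.8 CPM), neutrophil markers 7 of 7 higher (135 to 1552 CPM against 1.36 to 2.82 CPM) and lymphocyte markers 4 of 8 higher (6.88 to 9.43 CPM against 1.99 to 4.55 CPM). At 34 weeks endothelial markers had 2 higher and 5 lower (sum 185 to 231 CPM against 236 to 269 CPM; 3 higher and 1 lower with total counts), stellate markers 6 higher and 2 lower (1089 to 1942 CPM against 329 to 345 CPM) and cholangiocyte markers 6 of 6 higher (41.7 to 75.4 CPM against 6.84 to 12.8 CPM). Neutrophil markers then had 5 of 7 higher (118 to 272 CPM against 1.91 to 7.02 CPM), and lymphocyte markers 2 higher and 1 lower, with sums that overlapped (5.55 to 13.2 CPM against 4.24 to 11.2 CPM). The part of these lists in the levels of Lipc, Lipg and Lcat was not tested.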

How the data were processed

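Livers of 18 mice in 6 groups of 3 were analysed. The authors aligned paired-end polyA reads with Salmon to the GRCm39 Ensembl cDNA and summed transcripts to genes with tximport (R 4.3.0), with automatic library type. The deposited table of estimated counts, of which 19.4% of values are not whole, was rounded and tested. The deposited TPM values served for levels of different genes and for one alternative, and the deposited mean transcript lengths for length offsets. The authors' fold changes and p-values from DESeq2 1.40.1 were deposited too and were not used.

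Groups came from the labels. Genes with more than 100 reads over all mice (14533) were fitted with edgeR 4.0.16 (quasi-likelihood F test, TMM, 6 group means, two-sided) in R 4.3.3, with Benjamini-Hochberg adjustment over all of them, and called at an adjusted p under 0.05 and a change over 2-fold. The labels name mice but not litters, so p-values measure the spread between these mice. Alternatives were DESeq2 1.42.0 with length offsets, limma 3.58.1 on log2(TPM + 0.1), other scalings and filters, only the groups compared, each mouse left out, and mouse number as a replicate block. Fold changes on the TPM scale are understated for low genes. Tested on simulated counts for untreated against WT at 12 weeks (14371 genes), the fit recovered 82% of 4-fold and, by adjusted p, 25% of 2-fold changes, with 6 false calls. No pair of libraries agreed within sampling noise.

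The 8 genes, the partner and marker lists and the tests were chosen with earlier results of these data known. One item of the first partner list is not reported here. Named were all 8 and called partner genes of untreated against WT (at most 3 per list, direction and time by size). So were the 3 genes most like each called member (mean of at least 1 CPM) and the first 2 markers of each list. Further adipocyte, hepatocyte and macrophage markers were named where they departed from their list or weighed on its sum. Positions are from GENCODE M39 (GRCm39). Upstream sequences were found in RefSeq (GRCm38.p6) for 5 of the 8 genes and placed in GRCm39 by exact match. Counting intervals of single mice were not computed, and depth limits Lipg most.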

Additional observations from a re-analysis of the deposited data

Results flagged for a closer look

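The excess of Lpl in treated over WT livers differed between the times by a test of the difference itself: the change from 12 to 34 weeks was -1.09 ± 0.36 on the log2 scale (edgeR adjusted p = 0.0452), from 2.27 at 12 weeks to 1.18 at 34 weeks. Over 20 alternatives the change ranged from -1.22 to -0.24 and the adjusted p from 0.0186 to 0.701, and 6 of them made the call. The summed macrophage markers of treated livers were 1528 to 3437 CPM at 12 weeks and 656 to 1480 CPM at 34 weeks, and their part in the change was not tested. Time and study code cannot be told apart.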

How the results depend on the processing

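Of 22 called values, 0 changed sign in 316 refits and 52 refits lost the call. Of 31 values not called, 24 of 435 refits made a call and 24 changed sign, from values between -0.98 and 0.52.

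With total counts the sign turned for Lmf1 (0.195 at 12 and 0.188 at 34 weeks), Pltp (0.089) and Angptl4 (0.13) in untreated against WT at 34 weeks, and in treated against untreated for Lcat at 12 weeks (-0.56) and Pltp (-0.29) and Lmf1 (-0.013) at 34 weeks. By TPM it turned for Lmf1 (0.30 and 0.31) and Pltp (0.23) against WT, for Lcat (-0.94), Pltp (-0.22) and Lmf1 (-0.092) in treated against untreated, for Lcat (0.011) and Pltp (0.003) in treated against WT at 34 weeks, and for Lpl between the times in treated mice (0.085). Leaving out single mice, the treated-to-WT values at 34 weeks ranged from -0.04 to 0.27 (Lipc), -0.53 to 0.015 (Pltp) and -0.015 to 0.24 (Lmf1), and the treated-to-untreated ones from -0.007 to 0.59 (Pltp) and -1.07 to 0.67 (Angptl4).

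Counts of called members moved as follows. Treated against WT at 12 weeks gave 2 in all, 1 with length offsets, with only the groups compared or at an adjusted p under 0.01, 6 by TPM, and 1 to 4 with a mouse left out. At 34 weeks DESeq2 gave 1 in place of 0. Treated against untreated at 12 weeks gave 5, but 3 with total counts or TPM, 2 at the stricter p, and 3 to 5 with a mouse left out. Untreated mice between the times gave 1, but 0 with total counts, length offsets, TPM, only the groups compared or the stricter p, and 0 to 1 with a mouse left out. Treated mice between the times gave 2, but 5 by TPM, 1 at the stricter p, and 1 to 4 with a mouse left out. The change in the treated-to-WT difference gave 1, but 0 with upper quartile scaling, no filter, length offsets, only the groups compared or the stricter p, 2 by TPM, and 0 to 2 with a mouse left out. Causes were not tested beyond what each setting changes.

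Mice that share a number carry different study codes, and the correlation of their deviations from group means ran from -0.25 to 0.46, so the numbers do not pair them. With the replicate block, treated mice between the times gave 1 call (Pltp, 1.45) and WT mice 0. Angptl4 was no longer called (-2.07, adjusted p = 0.212).

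Without TMM, the share of higher calls among all genes went from 69.1% to 87.2% and from 56.6% to 81.8% (untreated against WT, 12 and 34 weeks), from 53.1% to 24.4% (treated against WT, 12 weeks), and from 39% to 8.92% and 40.8% to 18.5% (treated against untreated). Depth limits Lipg, with as few as 7 reads in a library.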
